A study of Mus musculus with 4 samples.

Results

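Genes of cell death and of the p53 pathway were examined in the seminal vesicle of the ageing male mouse. They were picked by name: a probe set of the array counted as a member when the platform annotation gave it a single gene symbol of a Bcl-2 family protein, caspase, inhibitor of apoptosis, death receptor or adaptor, TRAF protein, p53 regulator, Gadd45, Dap or Pdcd gene. This gave 87 of the 12488 probe sets in the table and 61 of 8251 named genes. A probe set is a group of short probes that together read 1 transcript. The pattern takes names as they stand, so it also holds genes whose products do other work, such as Pdcd1, which encodes an inhibitory receptor of T cells, and Dap3, which encodes a protein of the mitochondrial ribosome. Trp53 and Bax were not analysed here.

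The arrays came from 4 C57Bl/6J mice, all Nkx3.1 +/+ and 15 months old, and the labels give no treatment and no second group. Each mouse gave 1 Affymetrix Mu74AV2 array of whole seminal vesicle RNA, and the series belongs to a study of prostate differentiation by Nkx3.1, G9a and Uty. The mice are numbered 1 to 4 in series order, a number that only names them. In whole tissue, fewer cells of a type and less RNA per cell cannot be told apart. Values are log2 expression values, so a step of 1 is a doubling. Probes differ in how well they bind, so values of different genes give no order of abundance, and a limit drawn from other probe sets is only a rough guide to signal.

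Apoptosis runs along 2 routes that meet at the caspases, a family of proteases. In the mitochondrial route, BH3-only proteins release the pore formers Bax and Bak1 from pro-survival proteins such as Bcl2 and Mcl1, and leaked mitochondrial proteins then start the caspases through Apaf1. In the other, death receptors such as Fas recruit Fadd or Tradd and activate Casp8, with Cflar as a brake. The protein p53, held down by Mdm2 and Mdm4, switches on genes of arrest and death, among them Bax, Bbc3 and Cdkn1a. In male accessory glands the secretory epithelium depends on androgen and dies by apoptosis after castration.

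The labelled tissue was checked against marker genes. Of 7 measured secretion genes of the seminal vesicle 6 exceeded the background range, as did 6 of 7 luminal epithelium and 9 of 10 smooth muscle genes, against 0 of 4 basal epithelium genes. The counts were 3 of 6 for fibroblast, 2 of 6 for endothelium, 6 of 12 for macrophage and dendritic cell, 2 of 6 for B and plasma cell, 2 of 5 for T and NK cell and 0 of 5 for neutrophil genes. They were 1 of 3 for erythrocyte, 1 of 4 for skeletal muscle, 2 of 4 for prostate, 0 of 2 for epididymis and vas deferens and 0 of 3 for adipocyte genes. Mouse 1 stood apart in the prostate gene Pbsn, which encodes probasin, with 6.57 against 3.02, 3.18 and 3.47 in mice 2 to 4 (mean 4.06 ± 1.68, SD, n = 4, adjusted p = 0.00150, limma), the largest SD of all probe sets tested. The other prostate genes did not set mouse 1 apart, with 6.19, 6.04, 6.14 and 6.27 for Hoxb13, 6.51, 6.26, 6.75 and 6.54 for Psca and 3.42, 3.05, 3.52 and 3.58 for Msmb. The part of prostate RNA in the member values of mouse 1 was not tested. Without mouse 1, 21 member probe sets and 20 genes stood above the background range and limma called 0 members variable, as with all 4 arrays. A member must pass on every array kept, so leaving out an array can only keep or raise the count above the range. The background range was taken from 108 probe sets that read 83 genes typical of other organs. Its upper limit, their 90th percentile on an array, came to 6.09, 5.85, 6.01 and 6.15 for mice 1, 2, 3 and 4. A probe set exceeded it when it did so on all 4 arrays. The other-organ genes include Cd3e and Mpo, which also stand in the T and NK cell and the neutrophil list. The counts of those lists are therefore not independent of the limit. Pairs of arrays had r from 0.992 to 0.994 over probe sets, and probe sets are not independent of each other. Smooth muscle genes above the range stood highest in mouse 1, with median deviations from each gene's own mean of 0.33, -0.18, -0.02 and -0.17. Luminal epithelium genes gave -0.06, 0.10, -0.10 and 0.09, macrophage and dendritic cell genes -0.12, 0.14, 0.27 and -0.29, and B and plasma cell probe sets -0.31, 0.64, 0.66 and -0.98.

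Most members gave no signal beyond the background range. Of the 87 member probe sets, 58 exceeded it on no array, 8 on 1 to 3 arrays and 21 on all 4. The 21 are 24.4% of the 86 members that entered the counts over the whole array, where 24.8% of all probe sets exceeded the range. By gene, 20 of 61 or 32.8% exceeded it with at least 1 probe set, against 30.4% of all genes. Both shares of the members lay near those of the whole array. The counts by role given below stand beside the same 30.4% of all genes. Role groups hold few genes, and differences between them were not tested. The count depended on where the range was set, at 38 genes with a limit at the 75th percentile and 15 with one at the 95th. A value inside the range does not show that a gene is silent.

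**Figure D1:**
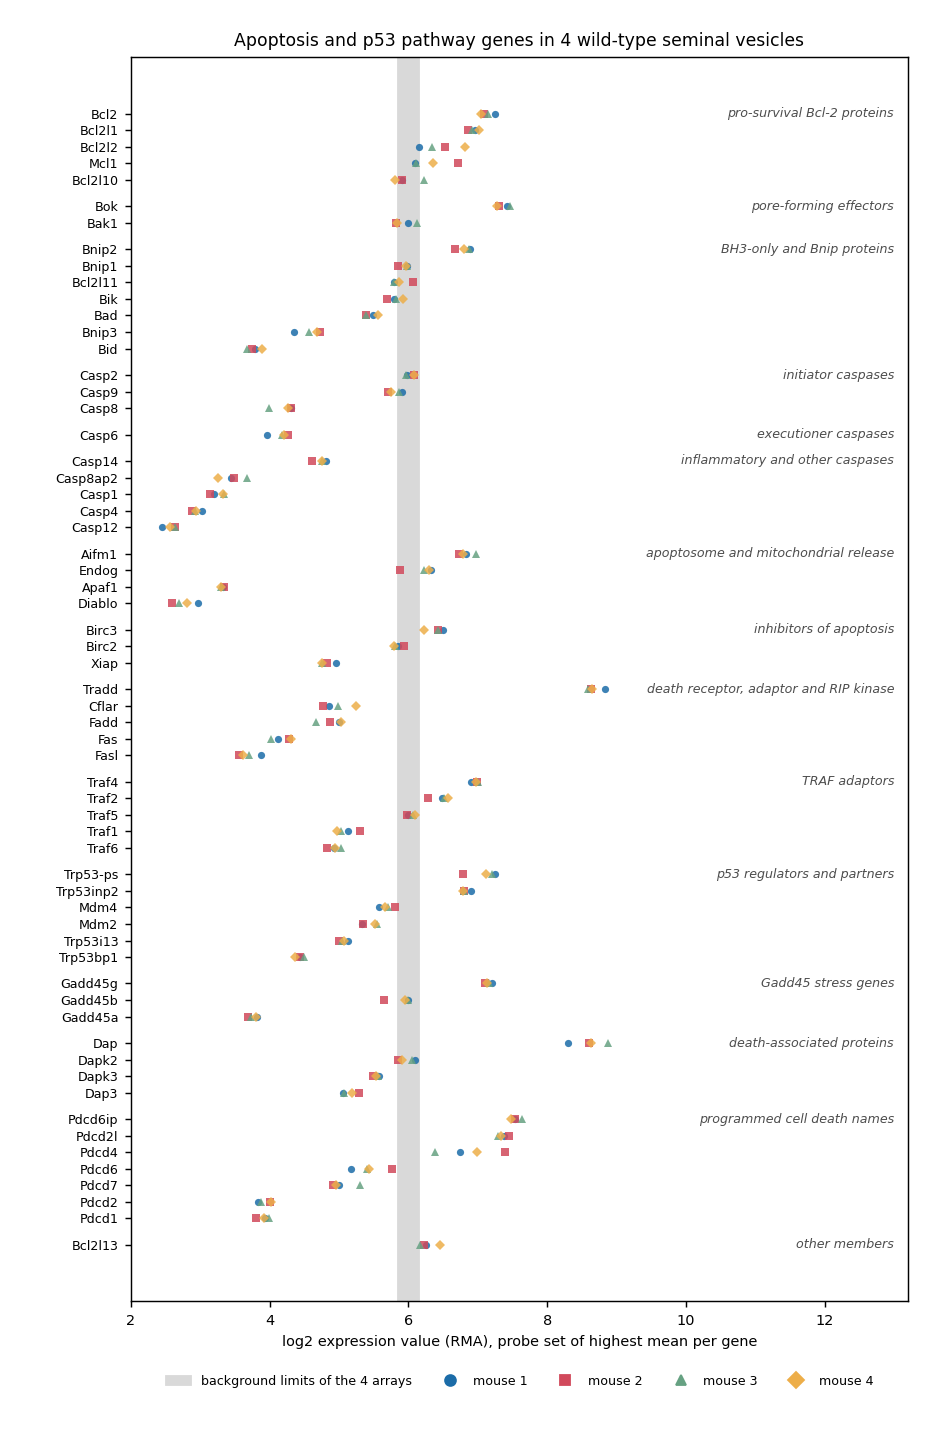
Log2 expression values (horizontal axis) of the 61 member genes, each by its probe set of highest mean, grouped by role; each mouse has its own symbol and colour, and the grey band spans the background limits of the 4 arrays (5.85 to 6.15). In the pro-survival group 4 of 5 genes exceed each array's own limit, Mcl1 and Bcl2l2 narrowly in mouse 1. All 9 caspase and caspase-partner genes lie in the band or to its left. Of all genes on the array 30.4% exceed the range, and differences between role groups were not tested.

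The pro-survival members of the Bcl-2 family gave signal in 4 of 5 genes and in 5 of 9 probe sets. Bcl2, the founding inhibitor of mitochondrial death, had 7.24, 7.09, 7.14 and 7.05 in mice 1 to 4 (mean 7.13 ± 0.09, SD, n = 4), and Bcl2l1, which encodes Bcl-xL, had 6.96, 6.86, 6.92 and 7.01 (6.94 ± 0.06). The mice lay close together in both genes. Bcl2l2, which encodes the relative Bcl-w, needed for sperm formation, had 6.15, 6.52, 6.34 and 6.82 (6.46 ± 0.28). Mcl1, a short-lived pro-survival protein that is quickly made and destroyed, had 6.10, 6.71, 6.11 and 6.36 (6.32 ± 0.29). Both were lowest in mouse 1, where they barely passed the limit, and neither passed on all arrays with the 95th percentile. Bcl2l10 had 5.91, 5.90, 6.23 and 5.81, above the limit in mice 2 and 3 alone.

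Of the pore formers, Bok exceeded the range and Bak1 did not. Bok, a Bcl-2 relative described in reproductive tissues, had 7.41, 7.31, 7.46 and 7.28 (7.37 ± 0.09, SD, n = 4), with all mice well above the limit. Bak1, which opens the mitochondrial outer membrane together with Bax, had 5.99, 5.82, 6.13 and 5.84 and passed in mouse 3 only.

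BH3-only proteins sense damage and start the mitochondrial route, and the genes of the Bnip name were grouped with theirs. In this group 1 of 7 genes exceeded the range. That gene was Bnip2, a binding partner of Bcl-2 that also acts in cell shape signalling, with 6.89, 6.68, 6.88 and 6.81 (6.81 ± 0.10, SD, n = 4). The direct activator genes Bid (3.78 ± 0.09) and Bcl2l11, which encodes Bim (5.88 ± 0.13 for its brightest probe set), the sensitizers Bad (5.45 ± 0.08) and Bik (5.80 ± 0.10), Bnip1 (5.94 ± 0.06), which serves membrane fusion at the endoplasmic reticulum, and Bnip3 (4.58 ± 0.17), a mitophagy receptor, did not exceed it. Bcl2l13, a mitochondrial outer membrane protein that also takes part in mitophagy and was left without a role group, had 6.25, 6.22, 6.16 and 6.46 (6.27 ± 0.13) and passed narrowly.

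No caspase gene exceeded the range. The initiators were Casp9, the protease of the mitochondrial route, at 5.91, 5.71, 5.87 and 5.75 for its brightest probe set, Casp8, the protease of the receptor route, at 4.31, 4.31, 3.995 and 4.27, and Casp2 at 5.98, 6.08, 5.97 and 6.08. Casp2 passed the limit in mouse 2 alone. The executioner Casp6 had 4.15 ± 0.13 (SD, n = 4). The inflammatory caspases Casp1 (3.25 ± 0.10) and Casp4 (2.94 ± 0.06), the endoplasmic reticulum caspase Casp12 (2.57 ± 0.09), the skin caspase Casp14 (4.73 ± 0.09) and the Casp8 partner Casp8ap2 (3.46 ± 0.17) were inside the range on every array.

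Of the proteins that leave mitochondria and their partner in the cytosol, 2 of 4 genes exceeded the range. Aifm1, a flavoprotein that supports the respiratory chain and cuts loose in some forms of death, had 6.84, 6.73, 6.97 and 6.79 (6.83 ± 0.11, SD, n = 4). Endog, a mitochondrial nuclease, had 6.32, 5.88, 6.22 and 6.29 (6.18 ± 0.20) and stood lowest in mouse 2, just above that array's limit of 5.85. Apaf1, the scaffold of the apoptosome, gave 3.32 ± 0.02, and Diablo, which blocks inhibitors of apoptosis, gave 2.76 ± 0.16, both inside the range in every mouse.

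The inhibitors of apoptosis gave signal in 1 of 3 genes. Birc3, a ubiquitin ligase of TNF receptor complexes, had 6.50, 6.43, 6.42 and 6.23 (6.39 ± 0.12, SD, n = 4) and was lowest in mouse 4. Its close relative Birc2 had 5.85, 5.93, 5.81 and 5.78, above the limit in mouse 2 only. Xiap, the direct caspase inhibitor, gave 4.82 ± 0.09 with its brightest probe set and was inside the range in all mice.

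In the death receptor route 1 of 5 genes, the adaptor gene Tradd, exceeded the range. Tradd, which links TNF receptor 1 to survival and death signals, had 8.83, 8.63, 8.59 and 8.65 (8.68 ± 0.11, SD, n = 4). Its single probe set carries the suffix that Affymetrix gave to sets built under relaxed probe rules, as do those of highest mean for Bnip2, Trp53-ps and Bcl2l10, so what it reads is less certain. The other 4 genes of the group did not exceed the range. Fas had 4.12, 4.27, 4.02 and 4.30 with 1 probe set and 3.48, 3.95, 3.504 and 3.43 with the other, and its ligand Fasl had 3.87, 3.55, 3.69 and 3.61. Fadd, the adaptor of Fas, had 4.89 ± 0.16, and Cflar, the brake on Casp8, had 4.85, 4.76, 4.98 and 5.25, highest in mouse 4.

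The TRAF adaptors, which carry TNF family and Toll-like receptor signals, exceeded the range in 2 of 5 genes. Traf2, the adaptor that brings Birc2 and Birc3 to TNF receptors, had 6.48, 6.28, 6.51 and 6.57 (6.46 ± 0.12, SD, n = 4). Traf4, an epithelial member of the family found at cell junctions, had 6.89, 6.99, 7.002 and 6.97 (6.96 ± 0.05). The mice hardly differed in Traf4. Traf5 (6.03 ± 0.05) passed the limit in mice 2 and 3 only, and Traf1 (5.11 ± 0.15) and Traf6 (4.93 ± 0.08 at most) stayed inside the range.

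The group of p53 regulators and partners takes in every Trp53 name, whatever the gene does, and 2 of its 6 genes exceeded the range. A probe set annotated to Trp53-ps, a pseudogene of p53, had 7.24, 6.78, 7.21 and 7.12 (7.09 ± 0.21, SD, n = 4), lowest in mouse 2. A pseudogene is a near copy of its parent gene, so which of the 2 transcripts this probe set reads is uncertain, and another probe set of the same annotation gave 4.57 ± 0.10. Trp53inp2, which works in autophagy and transcription, had 6.90, 6.80, 6.79 and 6.79 (6.82 ± 0.06). Mdm2, the ubiquitin ligase that destroys p53 and is itself a p53 target, had 5.33, 5.35, 5.55 and 5.52 (5.44 ± 0.11) and was inside the range in all mice. So were Mdm4 (5.69 ± 0.10 at most), the repair factor Trp53bp1 (4.43 ± 0.06) and the p53-inducible Trp53i13 (5.06 ± 0.06).

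Of the stress-induced Gadd45 genes, Gadd45g alone exceeded the range, with 7.204, 7.10, 7.16 and 7.13 (7.15 ± 0.04, SD, n = 4). This was the lowest SD among the members above the range. Gadd45a, a classical p53 target, gave 3.76 ± 0.06, and Gadd45b, induced by NF-kappaB and TGF-beta, had 6.00, 5.64, 6.00 and 5.95 and did not pass on any array. Dap, a small protein that restrains autophagy, had 8.30, 8.60, 8.88 and 8.62 (8.60 ± 0.24), lowest in mouse 1 and highest in mouse 3. The death-associated kinase genes Dapk2 (5.98 ± 0.12) and Dapk3 (5.54 ± 0.04) and the mitochondrial ribosome gene Dap3 (5.15 ± 0.11) did not exceed the range, although Dapk2 passed in 3 mice.

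The Pdcd genes share a name more than a function, and 3 of 7 exceeded the range. Pdcd6ip, which encodes the membrane-scission protein ALIX, had 7.53, 7.53, 7.64 and 7.48 (7.55 ± 0.07, SD, n = 4). Pdcd2l, a relative of the ribosome assembly factor Pdcd2, had 7.38, 7.45, 7.28 and 7.34 (7.36 ± 0.07). Both were even across the mice. Pdcd4, an inhibitor of translation initiation known as a tumour suppressor, had 6.74, 7.40, 6.38 and 6.99 (6.88 ± 0.43). Pdcd1 (3.91 ± 0.08), Pdcd2 (3.93 ± 0.09), the calcium-binding Pdcd6 (5.45 ± 0.24 at most) and the minor-spliceosome gene Pdcd7 (5.04 ± 0.18) stayed inside the range.

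The spread of each member over the mice was then set against that of probe sets of like signal. Pdcd4 differed most among the members, but neither it nor any other member passed the test. It was highest in mouse 2 and lowest in mouse 3, a range of 1.02 log2 units or 2.02-fold, and its SD was 3.43 times the prior SD of the variance model at that signal (adjusted p = 0.30, limma's variance model). Under 12 alternatives the adjusted p of Pdcd4 ran from 0.187 without mouse 1 to 0.798 without mouse 2 (limma), and without mouse 2 its SD was 0.31. Mcl1, highest in mouse 2, had a range of 0.61 or 1.53-fold (adjusted p = 0.761, limma), and without mouse 2 its SD was 0.15. Bcl2l2, highest in mouse 4, had a range of 0.66 or 1.59-fold (adjusted p = 0.791, limma). The median of the luminal list was highest in mouse 2 and lowest in mouse 3, like Pdcd4, but its 6 genes above the range did not move as 1: mouse 2 was highest in 3 of them (Cldn3, Krt18 and Krt19), mouse 4 in 2 (Cdh1 and Krt8) and mouse 3 in 1 (Cldn7), and Cdh1 was lowest in mouse 2. Krt18 (8.06, 8.37, 7.97 and 8.27) and Krt19 (8.02, 8.48, 7.58 and 8.25) had the order of the mice in Pdcd4, and the other luminal genes above the range did not. The hemoglobin gene Hba-a1, the 1 erythrocyte gene above the range, also had that order, with 7.88, 8.51, 7.71 and 8.39. Hbb-b2, inside the range, had 4.19, 5.31, 4.30 and 4.65. The remaining erythrocyte gene, Alas2, also inside the range, had 5.73, 5.51, 5.22 and 5.57 and was highest in mouse 1. The smooth muscle list was highest in mouse 1, where Mcl1 and Bcl2l2 were lowest and Pbsn was high, and without mouse 1 the SD of Mcl1 was 0.30 and that of Bcl2l2 0.24. With 4 mice an order can be shared by chance, and how many probe sets of the array share that of Pdcd4 was not counted. The part of epithelium, muscle, blood and prostate RNA in these values was not tested.

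Over the whole array, limma's variance model called 35 of 12422 probe sets at an adjusted p of 0.05, or 0.282%, and 0 of the 86 tested members. At an unadjusted p under 0.05 stood 3 members, or 3.49%, against 5.44% of all probe sets. All 3 were above the background range, where they made up 14.3% of the 21 members, against 6.87% of all probe sets above it. A range over 0.5 log2 units was seen in 6 members, or 6.98%, against 8.54% of all probe sets, and 1 mouse far from the other 3 by Dixon's test in 7 members, or 8.14%, against 5.09%. A gene that was not called can still differ between mice, since 4 arrays allow calls only of large differences.

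**Figure D2:**
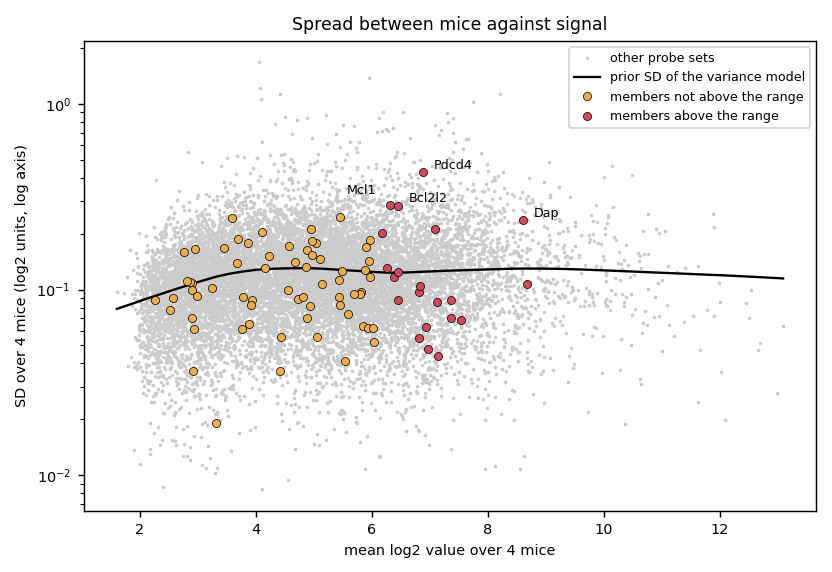
SD over the 4 mice (log axis, log2 units) against the mean log2 value of each probe set, for members above the background range (red), members not above it (yellow) and all other probe sets (grey); the black line is the prior SD of the variance model. Pdcd4, at an SD of 0.43, is the member furthest above the line, followed by Mcl1 and Bcl2l2.

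The median SD of the tested members was 0.10, against 0.11 over all probe sets, and above the range it was 0.105 for members and 0.112 for all. The other members of larger spread moved in different ways. Dap had a range of 0.58 (1.49-fold), Trp53-ps one of 0.46 (1.38-fold) and Endog one of 0.44 (1.35-fold), and both Trp53-ps and Endog were lowest in mouse 2. Without mouse 1 the SD of Dap fell to 0.15. Without mouse 2 the SD of Trp53-ps fell to 0.06 and that of Endog to 0.05. The adjusted p of these 3 genes was at least 0.851 in all 12 alternatives (limma). Among the members inside the range, Pdcd6 had 5.17, 5.77, 5.40 and 5.44 and a range of 0.59.

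The members above the range had median deviations from their own 4-mouse means of 0.02, -0.05, 0.03 and 0.01 in mice 1 to 4, against -0.00239, -0.00540, 0.00240 and -0.00337 over the 3085 probe sets above the range. Mouse 2 was lowest in 8 of the 21 members (38.1%, against 31.5% of the 3085) and highest in 3 (14.3%, against 29.9%). Mouse 1 was highest in 8 (38.1%, against 23.5%). Over all 86 tested members mouse 2 was lowest in 39.5% and highest in 24.4%, against 36.7% and 21.6% of all 12422 probe sets. The median deviations in mouse 2 were then -0.05 and -0.03. For the actin control, the value of the 3' probe set less that of the 5' one, a measure of RNA length, was 1.08, 0.82, 1.02 and 0.98. It was lowest in mouse 2, whereas the same difference for Gapdh, at -0.116, -0.147, -0.150 and -0.134, was lowest in mouse 3. The part of RNA length in these shifts was not tested.

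**Figure D3:**
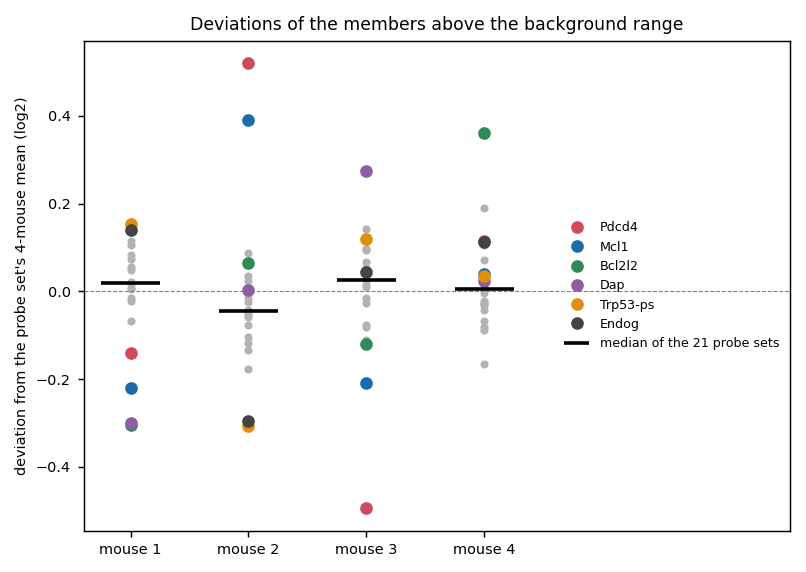
Deviation of each of the 21 member probe sets above the background range from its own 4-mouse mean (log2 units), by mouse; the 6 of largest SD are coloured and black bars are medians over the 21. Pdcd4 and Mcl1 lie highest in mouse 2 and Bcl2l2 in mouse 4, while the medians stay between -0.05 and 0.03.

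To show the starting regions of the 3 genes with the largest spread between mice relative to the model, the 250 bases upstream of the annotated start are given below, 5′ to 3′ on the coding strand, from RefSeq on GRCm38.p6. Capitals mark the GC box, GGGCGG on either strand. Neither the CCAAT box nor the TATA box, TATAAA, was found in these 3 stretches.
Pdcd4, chr19:53891981-53892230, + strand, the first of 2 annotated starts: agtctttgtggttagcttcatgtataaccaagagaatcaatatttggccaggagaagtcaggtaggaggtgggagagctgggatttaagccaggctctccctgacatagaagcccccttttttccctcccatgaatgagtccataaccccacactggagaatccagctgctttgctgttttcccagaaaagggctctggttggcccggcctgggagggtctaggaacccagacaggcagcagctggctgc
Mcl1, chr3:95658471-95658720, + strand: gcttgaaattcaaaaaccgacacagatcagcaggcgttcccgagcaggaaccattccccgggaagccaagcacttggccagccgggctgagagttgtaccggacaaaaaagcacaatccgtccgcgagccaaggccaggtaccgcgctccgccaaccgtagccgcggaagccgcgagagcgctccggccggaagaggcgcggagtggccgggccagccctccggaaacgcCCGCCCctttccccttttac
Bcl2l2, chr14:54883175-54883424, + strand: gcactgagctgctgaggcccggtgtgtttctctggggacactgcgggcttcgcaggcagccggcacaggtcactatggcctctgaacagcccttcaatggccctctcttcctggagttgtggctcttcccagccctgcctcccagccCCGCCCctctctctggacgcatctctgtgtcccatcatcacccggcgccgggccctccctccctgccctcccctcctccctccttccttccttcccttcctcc
The stretches of Mcl1 and Bcl2l2 each held 1 GC box and were 64.4% and 66% G and C, whereas that of Pdcd4 held none at 52.8%, near the median of 52.4% over all promoters. The window of the other Pdcd4 start, chr19:53903101-53903400, held both a GC box and a CCAAT box, so the absence of a GC box applies to the first start only.

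Promoters of 55 of the 61 member genes were found in RefSeq, as 68 windows from 250 bases before to 50 after a start. Both strands were searched and matches of different motifs may overlap. A GC box stood in 63.2% of the member windows and in 35.7% of all 32851, and its share was 63.6% for genes above the background range and 63% for the others. A TATA box stood in 7.35% and in 13.6% of all, and CCAAT in 35.3% and 37.4%. The p53 half-site, the decamer to which a pair of p53 subunits bind, was matched in 5 member windows or 7.35%, against 8.36% of all, at Mdm2, Gadd45a, Birc2, Fasl and Pdcd7. A full p53 site, a pair of neighbouring half-sites, was matched in 0 member windows and in 0.0731% of all. NF-kappaB sites were matched in 8 windows or 11.8%, against 8.46% of all, at Aifm1, Bcl2l1, Bnip1, Casp4, Dapk2, Pdcd6ip and Xiap. The windows of Casp4 overlap and both matched, whereas Bcl2l1 and Xiap also have windows without a match. A match is a description of letters and not a binding site, and many p53 sites are known to lie outside this window.

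Of the member genes 19 were read by several tested probe sets, which gives a view of how far a gene's level depends on the probes. In 6 of them, Bcl2, Bcl2l1, Bnip2, Pdcd6ip, Traf4 and Trp53-ps, probe sets lay on both sides of the limit, and in the other 13 none exceeded it. The means of 1 gene's probe sets differed by 0.48 to 4.26 log2 units, with a median of 2.52. Bcl2 had means of 7.13, 6.45 and 2.87, and Pdcd6ip of 7.55 and 4.10. The same mouse was highest with every probe set in 3 of the 19 genes and lowest in 4, and both held for Pdcd6 alone. Its probe sets had 5.17, 5.77, 5.40 and 5.44, and 2.80, 3.003, 2.83 and 2.96, both inside the background range.

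**Figure D4:**
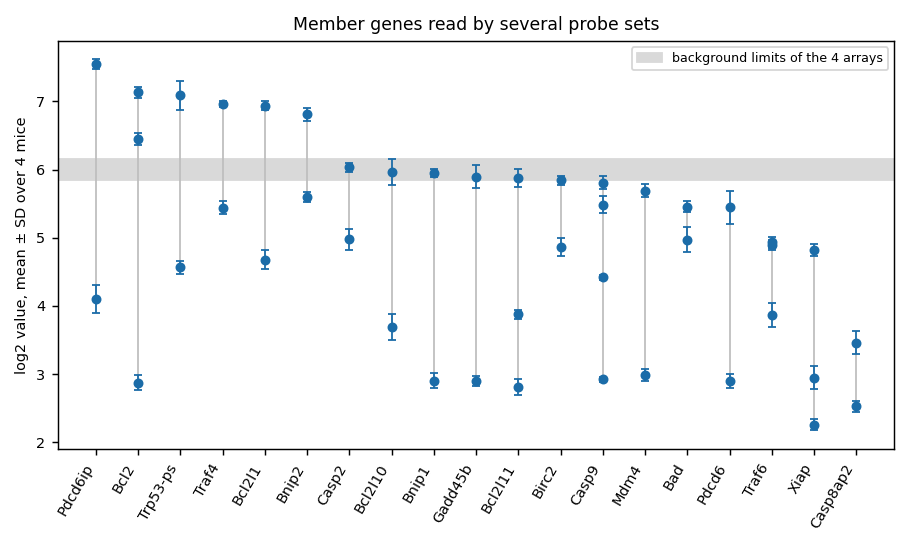
Mean ± SD over 4 mice (log2 value) of each probe set of the 19 member genes read by several tested probe sets; grey lines join the probe sets of a gene and the grey band spans the background limits. In the 6 genes at the left probe sets of 1 gene lie on both sides of the band, and the means of a gene's probe sets span 0.48 (Bad) to 4.26 (Bcl2).

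Genes of the same pathways outside the name pattern were counted from 2 lists. Of 21 measured p53 target genes 7 exceeded the background range and 0 were called (1 at an unadjusted p under 0.05, limma's variance model). Cdkn1a, the cell cycle inhibitor through which p53 arrests cells, had 6.72, 6.74, 6.84 and 6.72 (6.76 ± 0.05, SD, n = 4) with its brighter probe set. Its other probe set was inside the range in all mice (5.67 ± 0.07). The p53-induced antiproliferative gene Btg2 had 7.77, 7.47, 7.62 and 7.52 (7.60 ± 0.13). Perp, a p53 target that is also a desmosome component of epithelia, had 7.87, 8.71, 7.86 and 8.01 (8.11 ± 0.40), highest in mouse 2 like Pdcd4 and Mcl1 (adjusted p = 0.399, limma).

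Of 42 measured apoptosis genes outside the pattern 12 exceeded the range and 0 were called (2 at an unadjusted p under 0.05, limma). The TNF receptor gene Tnfrsf1a, whose signals pass through Tradd and Traf2, had 6.61, 6.42, 6.56 and 6.38 (6.49 ± 0.11, SD, n = 4) with its brighter probe set. Its other probe set was inside the range in all mice (5.58 ± 0.15). Ltbr, a receptor of the same family, had 6.67, 6.73, 6.81 and 6.63 (6.71 ± 0.08). Htra2, a mitochondrial protease that blocks inhibitors of apoptosis, had 8.38, 8.14, 8.18 and 8.33 (8.26 ± 0.12) with a probe set built under relaxed probe rules. Its other probe set had 6.41, 6.03, 6.43 and 6.21 (6.27 ± 0.19), also above the range. Shares above the range of 33.3% and 28.6% in these lists compare with 30.4% of all genes.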

How the data were processed

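Per the submitters' processing notes, the deposited log2 values per probe set were made by the authors with RMA, which corrects background, sets arrays to 1 distribution and summarises probes. The version is not given in the sources used here, and the log2 scale is taken from the values themselves (1.47 to 13.2). They were used as deposited. RMA compresses dim differences and hides shifts common to all probe sets. Names came from the platform annotation, 10833 probe sets having 1 gene, 396 several and 1193 none. Of the first, 10817 matched a RefSeq gene of GRCm38.p6. Another 5 probe sets name a member gene beside other genes and were left out by the rule. The 66 Affymetrix control probe sets, 1 of them a member reading Fas, stayed out of tests and array-wide counts.

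The variance of each probe set over the 4 arrays was set against the prior of limma 3.58.1 in R 4.3.3 (robust, with signal trend, 3 and 8.06 degrees of freedom, upper-tail F test), with Benjamini-Hochberg adjustment over 12422 probe sets. Members, lists, background list and tests were chosen with earlier results of these data known. The named genes rule names every member, with values per mouse for those above the background range, those with 1 mouse far from the others, and Mdm2, Bcl2, Mcl1, Casp8, Casp9, Fas and Cflar. Other pathway genes are the first 3 above the range of each list. Values per mouse of marker genes, Bcl2l10, Bak1, Birc2, Fasl and Pdcd6 fall outside the rule and were chosen after they were seen. The 4 arrays limit precision, and p-values measure only the spread between these samples. Each mouse had 1 array, so differences between mice cannot be told apart from those of RNA preparation or array handling. Alternatives are other limits, scalings, prior fits, filters and probe set rules, and leaving out each mouse. A planned description of protein sequences was not made. Figures used Python 3.11.15 and matplotlib 3.10.9.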

Additional observations from a re-analysis of the deposited data

Results flagged for a closer look

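In 7 of the 86 tested member probe sets (8.14%) 1 mouse lay far from the other 3, with a gap to its nearest neighbour above Dixon's 95% critical share of the whole range. Chance alone flags about 1 in 20 such groups, and 5.09% of all probe sets met the rule. Mouse 2 stood apart in Bnip1 (5.85 against 5.97 to 5.98), Xiap (2.13 against 2.29 to 2.32), Gadd45b (5.64 against 5.95 to 6.00) and, on the high side, Fas (3.95 against 3.43 to 3.504). Mouse 3 stood apart in Casp2 (5.21 against 4.87 to 4.92) and Casp8 (3.995 against 4.27 to 4.31), and mouse 1 in Trp53inp2 (6.90 against 6.79 to 6.80). Of these probe sets only that of Trp53inp2 exceeded the background limit in every mouse, and none was called by limma's variance model. Those flagged for Casp2, Xiap and Fas were not the brightest of their gene. With the brightest, mouse 3 was lowest in Casp2 (5.97 against 5.98 to 6.08). Mouse 2 did not stand apart in Xiap (4.95, 4.82, 4.75 and 4.76) or Fas (4.12, 4.27, 4.02 and 4.30). The dimmer probe set of Gadd45b was also lowest in mouse 2, whereas that of Bnip1 was lowest in mouse 4.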

How the results depend on the processing

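The number of members above the background range rose with a lower limit, to 42 probe sets and 38 genes with a limit at the 75th percentile and 43 and 39 with each array's median, from 21 and 20. With the 95th percentile Bcl2l2, Mcl1, Birc3, Endog and Bcl2l13 no longer passed. In the main setting and 12 alternatives 0 members were called variable by limma (3 to 5 had an unadjusted p under 0.05), and the smallest adjusted p was 0.187, that of Pdcd4 without mouse 1. The members' median SD ran from 0.09 to 0.11. The median deviation stayed negative in mouse 2 in all 6 alternatives, and was nearest to none, at -0.02, with the arrays shifted to the same median. It turned negative in 1 of 6 for mouse 3 and 2 of 6 for mouse 4. No paired analysis was possible because the labels give a single group. With 4 arrays, and many members near background, smaller differences were not detectable.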
